A study of Bos taurus with 18 samples.

Results

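The comparison of miR-34c mimic with negative control (NC) mimic covered 8 of the 18 sequenced pools of bovine blastocysts, namely the 5 pools labelled as miR-34c mimic supplementation and the 3 pools labelled as negative control mimic. The pools were chosen by these labels and not by any measured value. Oocytes had been taken from ovarian follicles of 2 to 4 mm of slaughterhouse ovaries, matured in vitro for 22 h with one or the other RNA, and fertilized in vitro. The embryos were collected at 8 d post insemination (dpi) and pooled by 10. Both groups had received a synthetic RNA in the maturation medium, and they differed in its sequence. The remaining 10 pools were 4 control pools matured with neither RNA, 3 miR-34c inhibitor pools and 3 NC inhibitor pools.

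A miRNA guides an Argonaute protein to messenger RNAs that pair with its seed, the bases near its 5′ end, and the paired messenger RNAs are translated less and broken down sooner. The miR-34 family, to which miR-34c belongs, acts downstream of p53 in somatic cells and is known for restraining regulators of the cell cycle and of cell survival. A mimic is a synthetic duplex with the mature miRNA as one strand, whereas an NC mimic has another sequence and serves as the control for adding RNA. The supplement was present during oocyte maturation, before the embryo's own genome becomes active, whereas the messenger RNA was measured in blastocysts. A blastocyst consists of an inner cell mass and an outer trophectoderm, and the embryos were pooled whole. In bulk pools of this kind, fewer cells of a type and less RNA per cell cannot be told apart.

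Libraries of the 5′ ends of messenger RNA did not measure miR-34c itself, so the supplementation was not checked in these data. Genes are given by Ensembl identifier, since the files do not pair identifiers with symbols and 0 of the rows of the RefSeq gene table used here carried one. The blastocyst label was for the same reason not checked against markers of inner cell mass, trophectoderm or cumulus cells, and lists of cell cycle, apoptosis and miR-34 target genes were not analysed here. The total count per pool was 2063863 to 3900521 with miR-34c mimic and 2386734 to 3658224 with NC mimic, and where a pool held no count of a gene, its level can have been up to 0.747 to 1.53 CPM (counts scaled to a common library size), which is the level of 3 counts. These limits cover counting error only. No label says whether the pools of a group came from separate cultures, and the p-values measure the spread between these pools, which may be technical.

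One pool stood apart from its group. On the first principal component of log2 CPM over all 18 pools, which held 50.2% of the variance, replicate 2 of the miR-34c mimic group scored -44.6, while miR-34c mimic replicates 1, 3, 4 and 5 had scores of 44.7, 16.5, 32.4 and 41.8. The 3 NC mimic pools had scores of 4.16, 9.12 and -13.1. The NC mimic pools thus lay between replicate 2 and the other miR-34c mimic pools on this axis, and the mean scores of the groups were 18.2 ± 36.8 (SD, n = 5) and 0.0496 ± 11.7 (SD, n = 3). An exact two-sided permutation test over the 56 splits of the 8 pools gave p = 0.429 (adjusted p = 0.714 over 5 measures of the pools), where the smallest p the design allows is 0.0357. The total count, the number of genes detected, the share of the 10 most abundant genes and the TMM factor gave adjusted p from 0.714 to 1 in the same exact test. Control replicate 1, with a score of -36.6, lay apart from the other 3 control pools (29.9 to 44.8) in the same direction. The counts of calls, of unadjusted p under 0.05, of genes without overlap and of intervals within a 2-fold change are therefore also given without miR-34c mimic replicate 2.

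**Figure D1:**
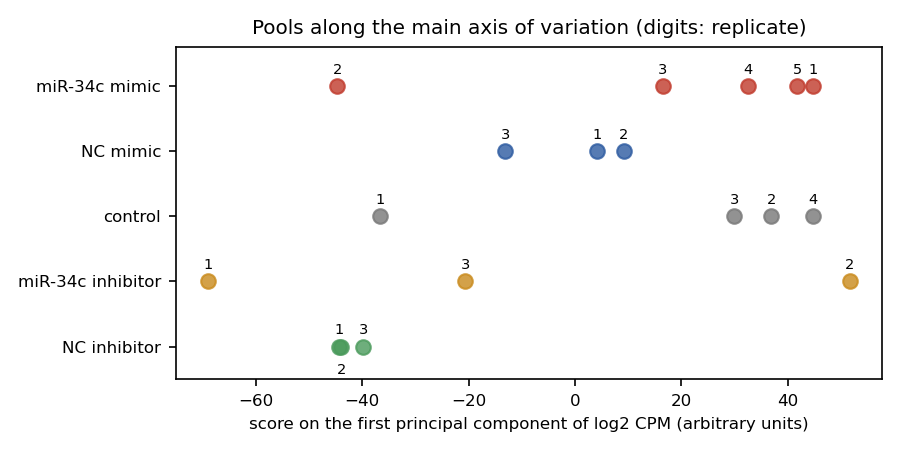
Score of each of the 18 pools on the first principal component of log2 CPM (x axis, arbitrary units) by group (y axis), with the replicate number beside each point. The 3 NC mimic pools, from -13.1 to 9.12, lie between miR-34c mimic replicate 2 at -44.6 and the other 4 miR-34c mimic pools from 16.5 to 44.7.

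The first question was whether any single gene differed between blastocysts of the miR-34c mimic and NC mimic groups. With all 18 pools in one edgeR quasi-likelihood fit, 0 of 11082 genes tested (0%) passed a Benjamini-Hochberg adjusted p of 0.05 and also differed by at least 2-fold (log2 fold change of 1 or more in size). The smallest adjusted p was 0.293. At an unadjusted p under 0.05 there were 840 genes (7.58%), of which 337 (3.04%) were higher and 503 (4.54%) lower with miR-34c mimic. With median-of-ratios size factors in place of TMM the split was 444 higher and 433 lower. The larger number on the lower side also turned round without miR-34c mimic replicate 1 (378 higher, 338 lower), 3 (338 and 280), 4 (391 and 329) or 5 (487 and 388), but not without replicate 2 (626 and 991) or any NC mimic pool. Among the 840 genes, 60 were at least 2-fold higher and 169 at least 2-fold lower. DESeq2 called 6 genes, limma voom 0 and limma voom with sample quality weights 324, and edgeR without miR-34c mimic replicate 2 called 0 of 10994, with 1617 at an unadjusted p under 0.05.

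In 740 genes (6.68% of those tested) the CPM values of the groups did not overlap. Every miR-34c mimic pool was above every NC mimic pool in 305 genes (2.75%) and below every NC mimic pool in 435 genes (3.93%). With median-of-ratios size factors these counts were 383 and 371, so that the larger number on the lower side turned round with the scaling. It also turned round without miR-34c mimic replicate 1 (552 higher, 471 lower), 3 (473 and 428), 4 (482 and 435) or 5 (612 and 492). Of the 305 and 435 genes, 168 and 302 were also at an unadjusted p under 0.05, whereas 270 were not. A 2-fold difference was reached by 34 of the 305 higher genes and by 131 of the 435 lower genes. Without miR-34c mimic replicate 2 the groups did not overlap in 1296 genes that were higher and 1426 that were lower, of 10994 tested. Each fit that leaves out a pool compares fewer pools, which by itself lets more genes fall apart.

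Genes that were lower with miR-34c mimic are described first. ENSBTAG00000021707 had 29.0, 28.9, 44.2, 45.6 and 48.5 CPM in miR-34c mimic replicates 1 to 5 and 139.9, 126 and 140.1 CPM in NC mimic replicates 1 to 3. The highest miR-34c mimic pool of this gene was thus far below the lowest NC mimic pool, and replicate 2 was no exception. The ratio of the means, NC mimic over miR-34c mimic, was 3.45, and the log2 fold change was -1.79 ± 0.34 (SE; edgeR adjusted p = 0.293). The 4 control pools of this gene had 21.3 to 59.1 CPM (median 52.2), all below every NC mimic pool. It was the 1 gene called by edgeR both without a filter on low counts (adjusted p = 0.0243) and with the 2 groups alone in the fit (adjusted p = 0.0122), and DESeq2 called it as well (adjusted p = 0.00162).

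ENSBTAG00000007061 was at 0.715, 4.73, 2.92, 9.92 and 0.510 CPM with miR-34c mimic and at 37.1, 34.8 and 38.9 CPM with NC mimic. The NC mimic pools were nearly alike, while the miR-34c mimic pools ranged from 1 to 25 counts. The ratio of the means was 9.82 and the log2 fold change was -3.25 ± 0.73 (SE; edgeR adjusted p = 0.293). This gene also varied within the control group, from 2.23 to 40.9 CPM with a median of 13.5, so that 1 control pool reached the NC mimic level. It was called by edgeR without a filter (adjusted p = 0.0427) and by DESeq2 (adjusted p = 0.0157).

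ENSBTAG00000017812 had 17.9, 20.9, 13.5, 15.1 and 16.8 CPM with miR-34c mimic against 45.0, 39.5 and 31.9 CPM with NC mimic. ENSBTAG00000003457 had 19.3, 14.9, 18.3, 17.8 and 15.8 CPM against 43.3, 43.5 and 50.5 CPM. In both genes the 5 miR-34c mimic pools lay within a narrow range, below the lowest NC mimic pool. Their log2 fold changes were -1.19 ± 0.25 (SE) and -1.41 ± 0.36 (SE), with edgeR adjusted p of 0.293 and 0.342. DESeq2 called the former (adjusted p = 0.0326), and edgeR with the 2 groups alone called the latter (adjusted p = 0.0209). The control pools were at 16.1 to 24.3 CPM for ENSBTAG00000017812 and at 17.9 to 54.0 CPM for ENSBTAG00000003457.

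ENSBTAG00000010620 had 52.9, 55.7, 56.6, 50.4 and 39.8 CPM with miR-34c mimic and 87.0, 86.3 and 90.4 CPM with NC mimic. The difference was smaller than 2-fold, the groups did not overlap, and the log2 fold change of -0.78 ± 0.18 (SE; edgeR adjusted p = 0.299) lay between -0.81 and -0.66 when each of the 8 pools was left out in turn. ENSBTAG00000000647 had 8.94, 10.2, 5.48, 4.36 and 5.61 CPM against 18.7, 16.3 and 15.4 CPM (log2 fold change -1.25 ± 0.28, SE; edgeR adjusted p = 0.293). The control pools of these genes had 41.1 to 62.1 and 6.70 to 11.3 CPM, in each case below the lowest NC mimic pool.

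ENSBTAG00000001745 was close to the detection limit with miR-34c mimic, at 0.715, 0.249, 2.56, 0.397 and 0.510 CPM (from 1 to 7 counts), and had 5.41, 7.61 and 4.86 CPM (from 13 to 21 counts) with NC mimic. The log2 fold change was -2.71 ± 0.67 (SE; edgeR adjusted p = 0.302), and DESeq2 called the gene (adjusted p = 0.0288). The control group had at most 2.12 CPM. ENSBTAG00000019203 was lower as well, at 69.0, 14.7, 49.3, 39.3 and 31.6 CPM against 107, 98.6 and 124 CPM, and its control pools ranged from 42.2 to 229 CPM. Its log2 fold change was -1.43 ± 0.49 (SE; edgeR adjusted p = 0.481). Replicate 2 was the lowest of the miR-34c mimic pools of this gene.

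Among genes that were higher with miR-34c mimic, ENSBTAG00000021119 had 63.6, 47.8, 84.4, 74.6 and 33.2 CPM against 18.3, 21.8 and 22.4 CPM with NC mimic. Every miR-34c mimic pool was above the highest NC mimic pool, although replicates 3 and 5 differed widely. The ratio of the means was 2.92 and the log2 fold change 1.54 ± 0.29 (SE; edgeR adjusted p = 0.293). The control pools, at 40.3 to 54.6 CPM, lay within the range of the miR-34c mimic pools. DESeq2 called 2 higher genes, and this was one (adjusted p = 0.00162).

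ENSBTAG00000036102, the other higher gene called by DESeq2 (adjusted p = 0.0399), had 43.6, 25.9, 30.0, 38.1 and 24.0 CPM with miR-34c mimic and 12.5, 14.5 and 13.2 CPM with NC mimic. Its log2 fold change was 1.27 ± 0.30 (SE; edgeR adjusted p = 0.302), and its control pools had 31.7 to 48.7 CPM. ENSBTAG00000010610 had 8.58, 4.73, 5.48, 7.14 and 5.61 CPM against 1.25, 2.54 and 1.89 CPM, a log2 fold change of 1.70 ± 0.38 (SE; edgeR adjusted p = 0.293). In this gene the control pools, at 2.61 to 3.64 CPM, lay between the groups. The NC mimic pools rested on 3, 7 and 7 counts.

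ENSBTAG00000018373 had 40.4, 39.8, 61.0, 41.6 and 34.7 CPM with miR-34c mimic and 25.4, 21.8 and 24.6 CPM with NC mimic. ENSBTAG00000009854 had 65.1, 58.5, 79.6, 62.7 and 52.6 CPM against 31.2, 39.2 and 43.2 CPM. Replicate 3 was the highest of the miR-34c mimic pools in both, and replicate 5 the lowest. Their log2 fold changes were 0.86 ± 0.19 (SE) and 0.75 ± 0.18 (SE), with edgeR adjusted p of 0.293 and 0.302. ENSBTAG00000031886 was more variable, at 95.5, 82.4, 50.0, 52.4 and 129.6 CPM against 33.7, 43.5 and 32.4 CPM (log2 fold change 1.16 ± 0.45, SE; edgeR adjusted p = 0.564), and its control pools ranged from 9.40 to 82.3 CPM.

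**Figure D2:**
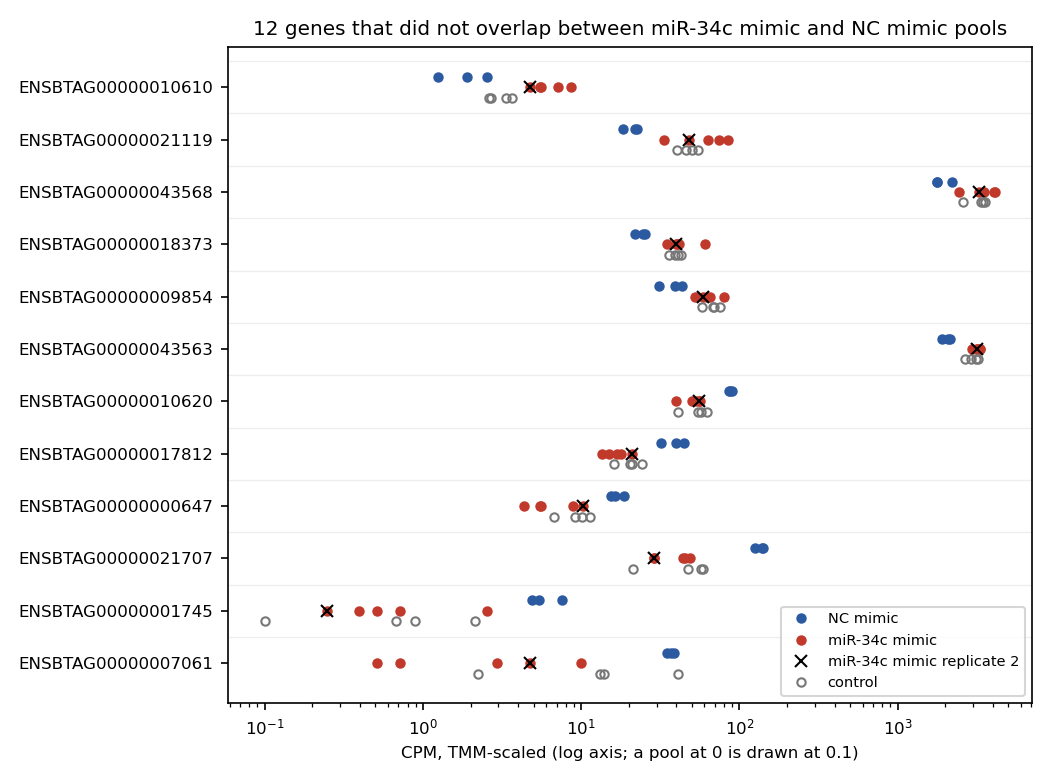
TMM-scaled CPM (x axis, log scale, 0 drawn at 0.1) of each miR-34c mimic pool (red), NC mimic pool (blue) and control pool (open circles) for 12 genes whose groups did not overlap, the 6 higher and the 6 lower with the smallest p, with miR-34c mimic replicate 2 crossed. In ENSBTAG00000021707 the miR-34c mimic pools lie from 28.9 to 48.5 CPM and the NC mimic pools from 126 to 140.1 CPM.

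Some of the genes whose groups did not overlap were among the more abundant in the blastocyst. ENSBTAG00000043563 had 2969, 3192, 3153, 3311 and 3319.8 CPM with miR-34c mimic and 1917, 2095 and 2149.8 CPM with NC mimic. Its log2 fold change was 0.63 ± 0.13 (SE; edgeR adjusted p = 0.293), with means of 3189 ± 143 CPM (SD, n = 5) and 2054 ± 122 CPM (SD, n = 3). The adjusted p was 7.19e-08 in DESeq2, the smallest of that test, but the change was under 2-fold. ENSBTAG00000043568 had 4151, 3286, 4085, 3522 and 2450.1 CPM against 1768, 1778 and 2201 CPM (log2 fold change 0.87 ± 0.18, SE; edgeR adjusted p = 0.293). The control pools had 2678 to 3199.6 CPM of the former and 2575 to 3568 CPM of the latter, in both cases above every NC mimic pool.

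ENSBTAG00000043556, the most abundant gene at an unadjusted p under 0.05 without overlap, had 6817, 7422, 6826, 5780.0 and 5236 CPM against 4428, 4673 and 5184 CPM. Its lowest miR-34c mimic pool was only slightly above its highest NC mimic pool, and the log2 fold change was 0.43 ± 0.15 (SE; edgeR adjusted p = 0.499). ENSBTAG00000018320 was the 1 lower gene among the 4 most abundant, at 1087, 1198, 969.6, 912 and 767 CPM against 1801, 1232 and 1441 CPM (log2 fold change -0.60 ± 0.20, SE; edgeR adjusted p = 0.460). Here replicate 2 of the miR-34c mimic group and replicate 2 of the NC mimic group almost met. The control pools had 5576 to 6656 CPM of ENSBTAG00000043556 and 1086 to 1904 CPM of ENSBTAG00000018320.

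The second question was how large a difference the intervals still allow. The 95% interval of the log2 fold change lay within -1 to 1, that is within a 2-fold change in either direction, in 6459 of the 11082 genes (58.3%), and in 5699 of 10994 genes without miR-34c mimic replicate 2. It lay within a 4-fold change in 10537 of the 11079 genes for which an interval could be computed (95.1%). These intervals are for each gene alone and are not adjusted over genes. The limit depended on the level of the gene. Below 5 CPM the interval lay within 2-fold for 6.56% of 1646 genes, with a median half-width of 1.11 on the log2 scale. From 5 to 20 CPM it did so for 47.4% of 3345 genes, from 20 to 100 CPM for 77.7% of 4322 genes, and above 100 CPM for 79.7% of 1766 genes. The median half-width was 0.71 from 5 to 20 CPM, 0.53 from 20 to 100 CPM and 0.52 above 100 CPM.

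The narrowest intervals among genes of at least 20 CPM were those of 3 genes. ENSBTAG00000006189 had 6987, 7037, 6436, 7426 and 7460.4 CPM with miR-34c mimic and 7887, 7739 and 7456 CPM with NC mimic, and its log2 fold change of -0.12 had an interval from -0.39 to 0.14. ENSBTAG00000015612 had 359.7, 383, 396, 374 and 393 CPM against 344, 329 and 331 CPM, with an interval from -0.08 to 0.46. The groups of the latter gene did not overlap even so. For ENSBTAG00000014295 (348, 310.3, 350.3, 330.0 and 354 CPM against 317, 337 and 297 CPM) the interval ran from -0.18 to 0.37.

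At the other end, the interval lay wholly beyond a 2-fold change in 7 genes, 1 higher and 6 lower. None of them passed the adjusted threshold in the edgeR fit of all 18 pools with the filter on low counts. The higher one was ENSBTAG00000006167, named after its values were seen, with a log2 fold change of 2.31 (interval 1.07 to 3.55, edgeR adjusted p = 0.302) and groups that overlapped. Among the lower ones, the interval ran from -2.50 to -1.09 for ENSBTAG00000021707, from -4.77 to -1.72 for ENSBTAG00000007061 and from -4.12 to -1.31 for ENSBTAG00000001745. Across all genes the median log2 fold change was 0.01, and the log2 fold changes from the lowest to the highest 5% of genes ran from -0.72 to 0.59.

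**Figure D3:**
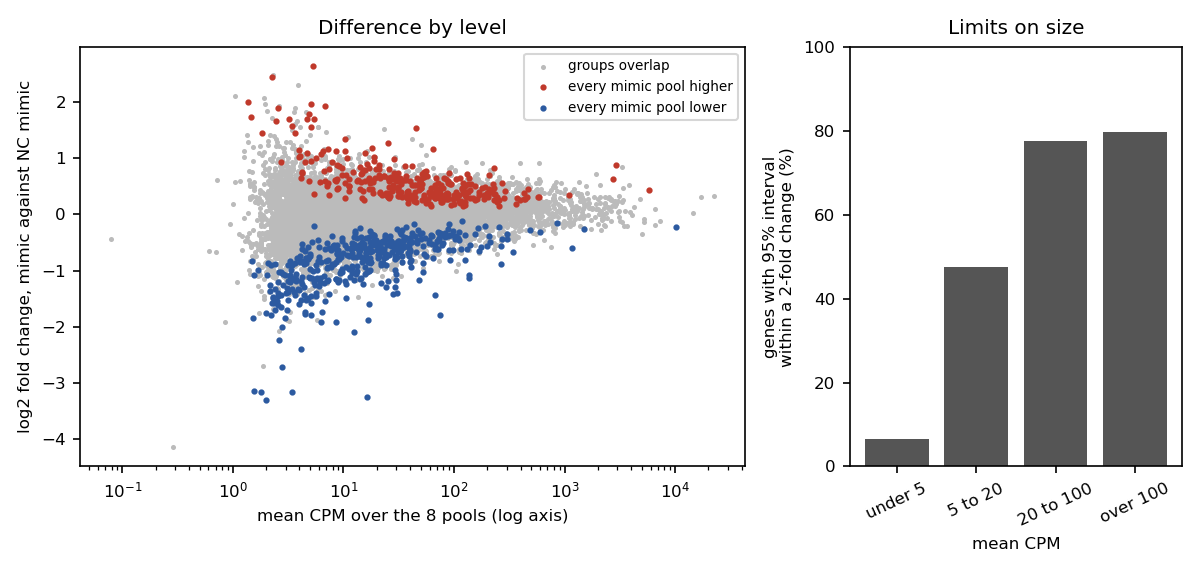
Left, log2 fold change of miR-34c mimic against NC mimic (y axis) by mean CPM over the 8 pools (x axis, log scale) for the 11082 genes tested, with genes whose groups did not overlap in red (305, higher) and blue (435, lower). Right, share of genes (bars, %) whose 95% interval lies within a 2-fold change, by mean CPM, from 6.56% below 5 CPM to 79.7% above 100 CPM.

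The third question was what rested on miR-34c mimic replicate 2. In 1994 of the 11082 genes tested the groups overlapped because of this pool alone. The other 4 miR-34c mimic pools were all above the NC mimic pools in 997 genes and all below in 997. The same count was 264, 132, 150 and 337 for miR-34c mimic replicates 1, 3, 4 and 5. Without replicate 2, 1617 genes were at an unadjusted p under 0.05 in place of 840, and 725 of the 840 were among them, all in the same direction. The spread between pools that counting error does not cover, as a biological coefficient of variation, was 0.295 in the miR-34c mimic group and 0.186 without replicate 2, against 0.135 in the NC mimic group.

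With only the 2 groups in the edgeR fit, 2 of 10384 genes tested were called with all 8 pools. Without miR-34c mimic replicate 2, a fit added after the data were seen, 369 of 10246 were called (67 higher and 302 lower). Of these 369 genes, 123 did not overlap with replicate 2 included, 213 were apart only without it and 33 overlapped either way. With all groups in the fit, leaving out both this pool and control replicate 1 gave 1 called gene, ENSBTAG00000054330, at 20.7, 40.8, 13.5, 9.12 and 16.8 CPM against 50.0, 43.1 and 45.9 CPM. Replicate 2 was the miR-34c mimic pool nearest to the NC mimic level in this gene. The 324 genes called by limma voom with sample quality weights, which gave replicate 2 a weight of 0.204 and the other 7 pools weights of 0.811 to 2.41, comprised 155 that were apart only without this pool and 136 that did not overlap with it.

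Single genes show the pattern. ENSBTAG00000015738 had 7.51, 16.1, 9.12 and 11.2 CPM in miR-34c mimic replicates 1, 3, 4 and 5, and 53.5 CPM in replicate 2, against 45.8, 31.9 and 41.0 CPM with NC mimic. Its log2 fold change was -0.98 with all pools and -1.84 without replicate 2. ENSBTAG00000046837 had 4.65, 5.85, 4.36 and 5.61 CPM in those 4 pools and 17.2 CPM in replicate 2, against 16.7, 13.4 and 13.5 CPM (log2 fold change -0.89, and -1.50 without replicate 2). In both, replicate 2 was above every NC mimic pool. ENSBTAG00000048485 was less extreme, with 17.9, 12.1, 19.0 and 13.8 CPM, 33.3 CPM in replicate 2, and 49.1, 32.6 and 47.0 CPM with NC mimic.

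On the higher side, replicate 2 was again nearer to the NC mimic pools than to its group. ENSBTAG00000000936 had 54.3, 53.3, 41.6 and 58.7 CPM in miR-34c mimic replicates 1, 3, 4 and 5 and 21.4 CPM in replicate 2, against 29.1, 25.7 and 25.1 CPM with NC mimic. ENSBTAG00000021887 had 33.3, 43.1, 37.3 and 43.9 CPM and 19.4 CPM in replicate 2, against 18.7, 21.0 and 17.8 CPM, and ENSBTAG00000007700 had 34.7, 28.5, 32.5 and 26.5 CPM and 13.4 CPM in replicate 2, against 11.7, 14.1 and 18.1 CPM. Replicate 2 was within or below the range of the NC mimic pools in these 3 genes. Their log2 fold changes without it were 0.96, 1.03 and 1.05, with edgeR adjusted p of 0.121, 0.121 and 0.142.

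The abundant gene ENSBTAG00000043564 followed the same order, with 5473, 4587, 4060.1 and 3979.8 CPM, 1559.8 CPM in replicate 2, and 2327, 2354 and 1918 CPM with NC mimic. It was among the genes called with the 2 groups alone once replicate 2 was left out, as was ENSBTAG00000015551. The latter had 45.1, 48.2, 52.4 and 56.7 CPM in the 4 pools and 281 CPM in replicate 2, against 132, 109 and 162 CPM, which put the NC mimic pools between the 2 parts of the miR-34c mimic group.

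ENSBTAG00000048933 was highest in replicate 2. It had 6.44, 8.04, 0.793 and 2.04 CPM in replicates 1, 3, 4 and 5 and 13.7 CPM in replicate 2, against 1.25, 2.54 and 1.62 CPM, and its log2 fold change went from 1.82 to 1.28 without that pool. ENSBTAG00000007554 had 5 counts in miR-34c mimic replicate 1, 0 counts in the other 4 miR-34c mimic pools, and 10, 11 and 9 counts with NC mimic (2.43 to 4.16 CPM). Its control pools had at most 0.871 CPM, its inhibitor pools at most 0.406 CPM and its NC inhibitor pools 5.87 to 12.5 CPM. Its log2 fold change was -3.13 with all pools and -2.72, -2.80, -2.82 and -2.88 without replicates 2, 3, 4 and 5, so that replicate 2 counted little more than the other pools at 0. Without replicate 1 the group was wholly at 0 counts, and no fold change is given.

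**Figure D4:**
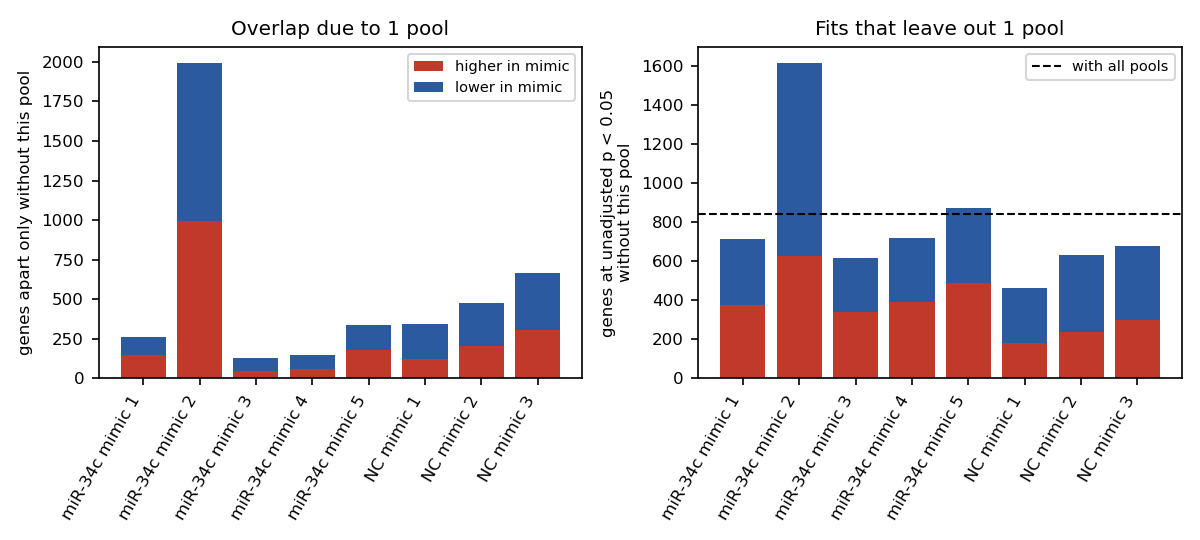
Left, number of genes (y axis) whose groups overlap because of 1 pool only, by that pool (x axis), split into genes otherwise higher (red) and lower (blue) with miR-34c mimic. Right, genes with an unadjusted p under 0.05 (y axis, number) in the edgeR fit without that pool, with the dashed line at the 840 genes of the fit with all pools. Replicate 2 of the miR-34c mimic group stands out on both sides, at 1994 and 1617 genes.

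The genes set apart once replicate 2 was left out were compared with the 10 pools outside the 2 groups. The values of these 10 pools were not used to define the genes. Replicate 2 was, however, singled out on the first principal component of all 18 pools, these 10 included. There the NC mimic pools lay between replicate 2 and the other miR-34c mimic pools. A gene that follows a shared axis would thus tend to be apart only without replicate 2. The shares that follow were therefore largely fixed by the selection and are no independent check. In those 10 control, miR-34c inhibitor and NC inhibitor pools, the leading principal component carried 58.8% of the variance. Pearson's r of a gene with that component was at least 0.7 in 25.2% of all genes tested and at most -0.7 in 24.9%. Of the 997 genes that were higher only without replicate 2, 85.6% had r of at least 0.7, and of the 997 that were lower, 76.6% had r of at most -0.7. Of the genes that did not overlap with all 8 pools included, the shares were 21.0% of the 305 higher genes and 29.7% of the 435 lower genes. On the opposite side, 6.56% of the higher genes had r of at most -0.7 and 5.29% of the lower genes had r of at least 0.7, below the shares of all genes. The median r was 0.28 and -0.50 in these genes, 0.93 and -0.86 in the genes apart only without replicate 2, and -0.07 over all genes. These correlations are over 10 pools that share the scaling of the libraries and are given without a test. Of the 369 genes called with the 2 groups alone and without replicate 2, 70.2% had an absolute r of at least 0.7, against 50.0% of all genes tested.

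The named genes fell on both sides of this divide. ENSBTAG00000015738, ENSBTAG00000015551 and ENSBTAG00000043564, whose groups were apart only without replicate 2, had r of -0.95, -0.95 and 0.98 with the axis of the other pools. ENSBTAG00000021119, ENSBTAG00000007061 and ENSBTAG00000018373, which did not overlap with all pools, had r of 0.20, -0.18 and -0.47. Of the genes selected whose groups did not overlap, 6 were beyond 0.7 in size, namely the lower genes ENSBTAG00000003457 (r = -0.88), ENSBTAG00000054330 (r = -0.85), ENSBTAG00000021707 (r = -0.78), ENSBTAG00000010620 (r = -0.74) and ENSBTAG00000017812 (r = -0.70) and the higher gene ENSBTAG00000003456 (r = -0.78). What the axis stands for was not tested.

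**Figure D5:**
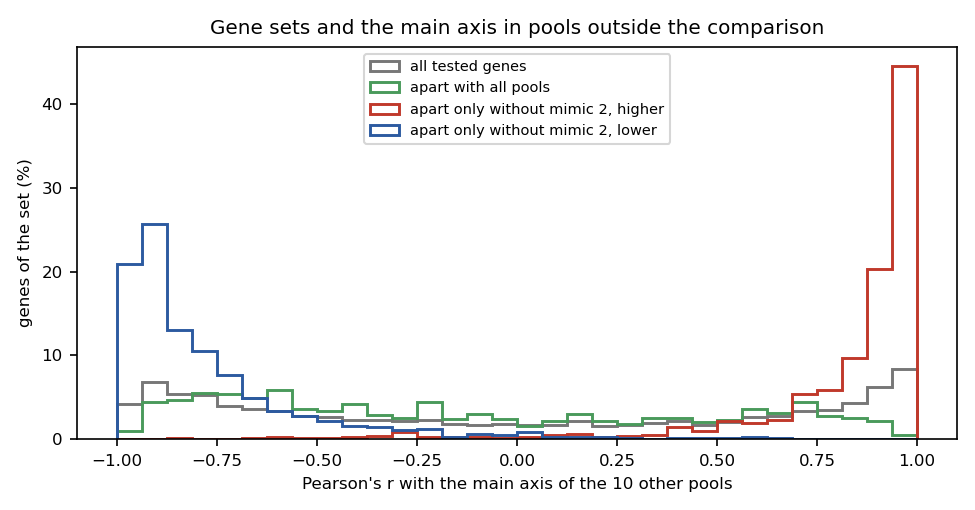
Share of genes (y axis, %) by Pearson's r (x axis) with the first principal component of the 10 pools outside the comparison, for all 11082 genes tested (grey), the 740 genes without overlap between the groups (green), and the genes apart only without miR-34c mimic replicate 2 that were higher (red, 997) or lower (blue, 997). The red and blue outlines pile up at the right and left ends, with 85.6% of genes at 0.7 or above and 76.6% at -0.7 or below, and the green outline does not.

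The NC mimic group had 3 pools, so each was left out in turn. Leaving out NC mimic replicate 1, 2 or 3 reduced the count at an unadjusted p under 0.05 from 840 to 465, 631 and 679 genes, of which 394, 518 and 508 were among the 840. For comparison, the count was 716, 1617, 618, 720 and 875 without miR-34c mimic replicates 1 to 5, where more pools remain in the group. Of the 11082 genes tested, the groups overlapped because of 1 NC mimic pool alone in 345 for replicate 1, 479 for replicate 2 and 669 for replicate 3. Replicate 3 was also the pool with the lowest score on the first principal component, and the biological coefficient of variation of the group was 0.081 without it. Without NC mimic replicate 1, 2 or 3 the number of called genes stayed at 0, and the smallest edgeR adjusted p was 0.987, 0.687 and 0.613.

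Among genes at an unadjusted p under 0.05 with all pools, those given next, 1 higher and 1 lower for each NC mimic pool, had the largest drop in the size of the log2 fold change without that pool. ENSBTAG00000030297 had 8.58, 1.99, 6.58, 15.5 and 6.64 CPM with miR-34c mimic and 0, 1.81 and 1.62 CPM with NC mimic, and its log2 fold change was 2.64 with all pools and 2.15 without NC mimic replicate 1, the pool at 0. ENSBTAG00000004211 had 0.715, 1.74, 2.56, 0.397 and 0.510 CPM against 7.49, 2.18 and 2.97 CPM, and its log2 fold change went from -1.69 to -1.04 without NC mimic replicate 1. In the latter gene a single pool held most of the NC mimic counts.

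ENSBTAG00000003456 had 1.79, 3.73, 2.56, 1.98 and 2.04 CPM against 1.25, 0 and 1.35 CPM, with a log2 fold change of 1.44 that was 0.90 without NC mimic replicate 2 and 1.99 without NC mimic replicate 3. ENSBTAG00000012409 had no count in any miR-34c mimic pool and 2, 4 and 0 counts with NC mimic, so that no fold change is given for it. ENSBTAG00000031687 and ENSBTAG00000049861 had log2 fold changes of 0.94 and -1.90 that were 0.57 and -1.36 without NC mimic replicate 3. Other pools moved them the other way, to 1.46 and -2.31 without NC mimic replicate 1, where the groups of both genes were apart, and to -2.53 for ENSBTAG00000049861 without miR-34c mimic replicate 1. The former had 5.01, 9.71, 3.65, 6.74 and 5.10 CPM against 5.41, 2.90 and 1.62 CPM, and the groups overlapped. The latter had 3.93, 0.498, 1.46, 1.98 and 0 CPM against 1.67, 6.53 and 9.45 CPM.

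Over the 8 fits that each left out a pool, the log2 fold change of ENSBTAG00000021707 lay between -1.84 and -1.67, that of ENSBTAG00000003457 between -1.45 and -1.33, that of ENSBTAG00000021119 between 1.44 and 1.73, and that of ENSBTAG00000043563 between 0.59 and 0.69. The ranges were wider for ENSBTAG00000007061, from -3.85 to -2.95, and for ENSBTAG00000001745, from -3.57 to -2.41. The adjusted p depended on the pool left out and ranged from 0.111 to 0.987 for ENSBTAG00000021119 and from 0.121 to 0.987 for ENSBTAG00000021707 in edgeR.

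Pools of miR-34c inhibitor and NC inhibitor share no library with the comparison, and their values are given beside it. The 305 genes higher with miR-34c mimic had a median log2 fold change of 0.48 in the mimic comparison and 0.07 for inhibitor against NC inhibitor, and 60.3% of them were higher with inhibitor. For the 435 lower genes the medians were -0.73 and -0.12, and 37.0% were higher with inhibitor. Over all genes tested the medians were 0.01 and 0.03, and 53.8% were higher with inhibitor. The difference between the 2 effects, tested as an interaction in the same edgeR fit, passed the adjusted threshold in 0 genes. There were 359 genes below 0.05 before adjustment, and no adjusted p was under 0.836. The log2 fold change for inhibitor against NC inhibitor was -0.14 for ENSBTAG00000021119, -0.60 for ENSBTAG00000021707, 0.26 for ENSBTAG00000017812 and -0.72 for ENSBTAG00000007061. For ENSBTAG00000001745 it was -3.58, in the same direction as with the mimic (edgeR adjusted p = 0.646). The NC inhibitor pools of these genes, in the same order, had 49.7 to 58.5, 103 to 130, 25.4 to 30.1, 29.9 to 34.7 and 6.13 to 7.56 CPM. Of ENSBTAG00000001745 the inhibitor pools had 0 to 0.949 CPM. The reason for these levels was not tested.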

How the data were processed

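The deposited table holds estimated counts, not normalized, for Ensembl genes in 18 pools. All values were whole numbers. Per the labels, the submitters' processing notes name the build ARS-UCD1.2 and the tools FastQC 0.11.9, cutadapt 3.7, STAR 2.7.10a, UMI-tools 1.1.4 and RSEM 1.3.3, with no role or order. The annotation release, strand setting and use of molecular identifiers in the counts are not given in the sources used here, and values of genes with a near-identical copy or an overlapping neighbour are uncertain.

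Counts were analysed in R 4.3.3 with edgeR 4.0.16 (quasi-likelihood F test), TMM and filterByExpr by group, which kept 11082 of 27270 genes, with all 18 pools in one fit. Genes were called at a Benjamini-Hochberg adjusted p under 0.05 if they also differed by a log2 fold change of 1 or more in size. Standard errors and 95% intervals came from the information matrix of that fit, and 3 genes gave none. CPM were scaled by TMM, and log2 CPM used a prior count of 2. All 13 pairs of pools within a group differed by more than sampling noise (chi-square per degree of freedom 2.37 to 56.4 over genes with at least 20 counts), so none was treated as a repeat deposit of another. This does not show that the pools are independent. The steps were tested on simulated counts, drawn independently for each gene and pool. The simulation had no axis shared between genes and no pool that stood apart, unlike these data, and its outcome is not given here.

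Except for ENSBTAG00000006167, chosen after its values were seen, the genes named were taken from 40 selected by fixed rules: the smallest p and the largest change in each direction among genes without overlap, calls of alternatives (those added later included), dependence on miR-34c mimic replicate 2 or on 1 NC mimic pool, abundance and the narrowest interval. The comparison, rules and lists were chosen with earlier results of these data known. Alternatives used limma 3.58.1, DESeq2 1.42.0 and sva 3.50.0. Cell type and pathway lists, and sequences of the mimics, were not used here.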

Additional observations from a re-analysis of the deposited data

Results flagged for a closer look

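In the 5 miR-34c mimic pools, 44 sets of values (5 measures of the libraries, and the CPM of named genes that varied) were searched for a pool far from the rest, by Dixon's criterion at 95%. It set a pool apart in 6 of them. In independent sets of normal values chance sets apart about 1 in 20, here 2.2. The named genes were chosen from these same pools, so the numbers cannot be compared. In 3 of the 6 the pool was miR-34c mimic replicate 2: ENSBTAG00000015551 had 281 CPM there and at most 56.7 CPM in the other 4 pools, ENSBTAG00000015738 had 53.5 CPM against at most 16.1 CPM, and ENSBTAG00000046837 had 17.2 CPM against at most 5.85 CPM. These genes were named because of that pool, so that their number is no independent count. In replicate 3, ENSBTAG00000018373 had 61.0 CPM against at most 41.6 CPM, and ENSBTAG00000001745 had 2.56 CPM against at most 0.715 CPM. In replicate 1, ENSBTAG00000007554 had 1.79 CPM and was at 0 in the other 4 pools.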

How the results depend on the processing

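No gene was called with all pools in edgeR with TMM, with median-of-ratios size factors, with at least 10 counts in every library, with the adjusted p alone, with the replicate block, in limma voom, or in any of the 8 fits that each left out a pool (0 to 0 higher and 0 to 0 lower). Calls came from no filter (0 higher, 2 lower), only the 2 groups in the fit (0 higher, 2 lower), DESeq2 (2 higher, 4 lower), 1 surrogate variable (13 higher, 52 lower) and limma voom with sample quality weights (44 higher, 280 lower). Of 2 fits added after the data were seen, the one with the 2 groups alone and no miR-34c mimic replicate 2 gave 67 higher and 302 lower, and the one without that pool and control replicate 1 gave 0 higher and 1 lower. All 6 genes called by DESeq2 were among the 65 of the surrogate variable and the 324 of the weighted voom fit, and 50 of those 65 were among the 324. At an unadjusted p under 0.05, the counts higher and lower were 1320 and 1716 with quality weights, 743 and 1148 with 1 surrogate variable, 1380 and 1553 with the 2 groups alone and no miR-34c mimic replicate 2, and 858 and 1142 without that pool and control replicate 1. Leaving out single pools gave 182 (without NC mimic replicate 1) to 626 (without miR-34c mimic replicate 2) higher and 280 (without miR-34c mimic replicate 3) to 991 (without miR-34c mimic replicate 2) lower. Genes without overlap numbered 383 higher and 371 lower with median-of-ratios size factors, 438 to 1296 higher and 428 to 1426 lower over the fits without 1 pool (fewer pools are compared there), 263 higher and 274 lower with at least 10 counts in every library (fewer genes are tested), 1224 higher and 1410 lower with the 2 groups alone and no miR-34c mimic replicate 2, and 1292 higher and 1426 lower without that pool and control replicate 1. The 95% interval lay within 2-fold in 5018 to 6273 genes over the fits without 1 pool. The biological coefficient of variation without 1 pool was 0.186 to 0.326 for miR-34c mimic and 0.081 to 0.159 for NC mimic. Pools of the same number deviated from their group means with correlations of 0.13, -0.30 and 0.11, so the numbers did not pair the pools, and the replicate block gave 370 higher and 403 lower genes at an unadjusted p under 0.05. Of 737 values of the 40 genes selected under the alternatives, 640 kept their direction and side of the threshold, 97 kept their direction and passed the threshold, and 0 changed direction. This tally was largely fixed by the selection, since no gene was called with all pools and some were selected because an alternative called them. Where not said otherwise, the cause of a change was not tested. Below 5 CPM, wide intervals limit what the comparison can show, and the part of depth in this was not tested.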
